A study of Mus musculus with 6 samples.

Results

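Transcript levels of 10 core autophagy genes were compared between O4-purified cells of wild-type (WT) and *Npc1*-/- mouse brain. The genes were *Sqstm1*, *Map1lc3a*, *Map1lc3b*, *Gabarap*, *Gabarapl1*, *Gabarapl2*, *Becn1*, *Atg5*, *Atg7* and *Ulk1*, chosen by symbol as components of one pathway. They are 10 of the 55492 genes in the table, and all 10 were among the 15245 genes that entered the test, which had a mean TPM of 0.5 or more. TPM is the share of a gene in the transcripts of a library, corrected for transcript length. Cells were taken from whole brains at postnatal day 16 with magnetic beads against O4, a surface antigen of late progenitors and immature oligodendrocytes, and were frozen without culture or treatment. There were 3 WT and 3 *Npc1*-/- mice, one polyadenylated RNA library each. Mutants carried 2 copies of the *Npc1* nih null allele and were F1 hybrids between BALB/cJ and C57BL6/J parents, each parent heterozygous for the allele. The allele is germline, so every cell of the mutant brain lacked the gene, and effects arising inside the purified cells and outside them cannot be told apart in these libraries. *Npc1* itself, the late endosomal and lysosomal cholesterol transporter, stood at 53.3, 50.4 and 45.5 TPM in WT and at 4.10, 4.42 and 3.16 TPM in *Npc1*-/- libraries, following every genotype label.

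Macroautophagy encloses cytoplasm in a double membrane, the autophagosome, which then fuses with the lysosome. The ULK1 kinase complex starts the process, a lipid kinase complex built around Beclin 1 marks the membrane, and a pair of ubiquitin-like conjugation systems attach the small Atg8 proteins (the LC3 and GABARAP subfamilies) to it. Receptors such as p62, encoded by *Sqstm1*, hold cargo to the Atg8 proteins and are degraded together with it. Much of the control of this flow acts on proteins, and transcript levels do not measure it.

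None of the 10 genes passed the test for a difference between genotypes in the fit of genotype alone. On scaled TPM all 10 log2 fold changes had 95% intervals between -0.48 and 0.61, and in TPM as deposited the lowest limit was -1.07. *Gabarap* came closest, and was the one member whose 3 *Npc1*-/- values all lay above the 3 WT values. Over all genes tested, 0.813% passed, and 13.3% had all mutant values above all WT values. Scaled TPM is TPM divided by a median-of-ratios size factor per library, and levels below are on that scale unless TPM as deposited is named. Fold changes are *Npc1*-/- over WT on log2(scaled TPM + 0.5), with a standard error (SE) from limma and an adjusted p over all 15245 genes. Genes were called where the adjusted p was under 0.05 and the log2 fold change was 0.1 or more in size.

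Several facts on the libraries bear on all values. From the steps between low FPKM values, the libraries held an estimated 40250000 to 50250000 fragments, so depth was similar in both groups. *Mbp*, the major myelin basic protein transcript, took 18.8 to 22.2% of TPM in WT and 20.2 to 26.1% in *Npc1*-/-, and the size factors ran from 1.039 to 1.295 in WT and from 0.7266 to 1.102 in *Npc1*-/-. The labels call the cells O4+ oligodendrocytes and the series text calls them progenitors. The lineage markers *Olig1*, *Olig2* and *Sox10* summed to 767 to 938 scaled TPM in WT and 809 to 908 in *Npc1*-/-. The 6 markers of myelinating cells summed to at least 174000 in each library, of which *Mbp* alone gave at least 145100. The 4 immature oligodendrocyte markers summed to 2241 to 3312 in WT and 3138 to 5815 in *Npc1*-/-, and 3 progenitor markers to at most 83.6. The 4 immature markers differed in direction, with overlapping groups for each. *Bcas1* (log2 fold change 0.74) and *Dusp15* (0.29) were above 0, and *Enpp6* (-0.14) and *Gpr17* (-0.22) below. *Bcas1* alone gave 1601 to 2770 of the immature sum in WT and 2417 to 5384 in *Npc1*-/-. Such sums weigh the most abundant transcripts and do not count cells. Markers of other cells were present too. The 8 neuronal markers summed to 103 to 143 in WT and 159 to 196 in *Npc1*-/-, the 6 microglial markers to 138 to 222 and 61.2 to 113, the 4 endothelial markers to 713 to 844 and 376 to 630, and the 4 pericyte markers to 328 to 487 and 198 to 250. Of these markers limma called only *Nefl*, a neuronal gene (log2 fold change 1.22, limma adjusted p = 0.0185), and the microglial *Tmem119* (-1.44, limma adjusted p = 0.0442). The 5 astrocyte markers, which summed to 274 to 324 and 224 to 419, moved in opposite directions. *Aqp4*, *Aldh1l1*, *Slc1a2* and *Gja1* were each lower in every mutant library (log2 fold changes from -0.81 to -0.23), *Gfap* was higher in every one (1.01), and limma called none of the 5. No marker on these lists was at 0 in all libraries, and the part of these cells in the autophagy values was not tested. In bulk RNA, fewer cells of a type and less RNA per cell cannot be told apart. *Npc1*-/- replicate 3 was the only library with the female transcript *Xist*, at 15.6 TPM against at most 0.01 elsewhere, and the only one with the Y-linked *Ddx3y* at 0. Several of the fold changes and shares that moved without that library are given both ways.

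The Atg8 family holds 5 of the members and shows most clearly what the genes share. An Atg8 protein is cut behind a glycine near its C terminus by the ATG4 proteases, and the exposed glycine is joined to phosphatidylethanolamine. The 45 coding bases that precede each stop codon are shown because they hold this site and differ among the family; capitals mark the last glycine codon. All are on the plus strand of GRCm38 and come from the principal transcript of each gene in GENCODE M21.
Map1lc3a, chr2:155277590-155277634: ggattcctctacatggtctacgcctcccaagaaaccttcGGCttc
Map1lc3b, chr8:121596723-121596767: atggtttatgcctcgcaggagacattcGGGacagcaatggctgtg
Gabarap, chr11:69994477-69994521: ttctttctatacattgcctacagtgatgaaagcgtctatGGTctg
Gabarapl1, chr6:129541120-129541164: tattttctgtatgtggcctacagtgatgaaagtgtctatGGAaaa
Gabarapl2, chr8:111952358-111952402: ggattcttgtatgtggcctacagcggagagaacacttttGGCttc
*Map1lc3b* has 5 codons behind the glycine and the other 4 genes have 1. Over the whole coding sequence *Map1lc3a* and *Map1lc3b* were 77.5% identical and *Gabarap* and *Gabarapl1* 74.9%, and the least alike pair, *Map1lc3a* and *Gabarapl1*, was 54.4% identical. The longest identical run between any pair of the 5 coding sequences was 17 bases. No member shared a stretch of 100 transcript bases with another member. Shared stretches with other loci did occur, and those with opposite-strand genes are given beside *Gabarapl1*, *Sqstm1* and *Becn1*. *Gabarapl2* shared 6.80% of its 100-base stretches with 3 other loci and *Map1lc3b* 2.88% with 5, processed pseudogenes among them. *Map1lc3a*, *Gabarap*, *Atg5*, *Atg7* and *Ulk1* shared none.

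**Figure D1:**
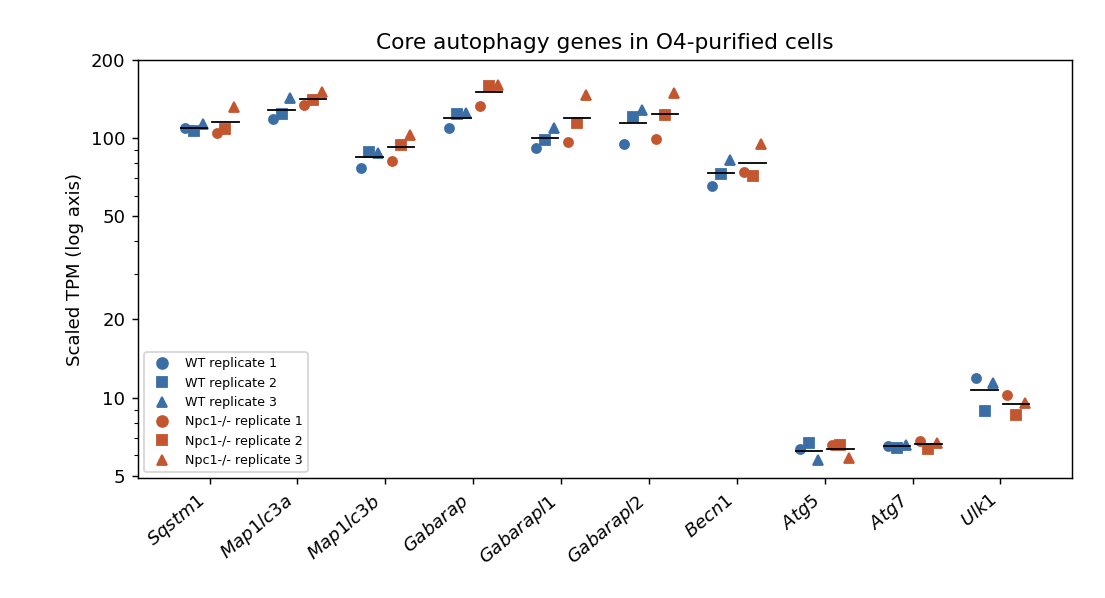
Scaled TPM of the 10 genes in each library on a log axis, with WT in blue, Npc1-/- in orange-red and one marker shape per replicate number and a line at each group mean. In this plot 7 genes lie between 65.5 and 159 scaled TPM and *Ulk1*, *Atg7* and *Atg5* between 5.77 and 11.9, and only for *Gabarap* are the groups separate.

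*Map1lc3a* (ENSMUSG00000027602, chr2:155276297-155278073, plus strand) encodes LC3A. It read 118, 123 and 142 scaled TPM in WT and 135, 140 and 150 in *Npc1*-/-. The highest WT library lay above 2 of the 3 mutant libraries, so the groups overlapped, and the log2 fold change was 0.15 (SE 0.10, limma adjusted p = 0.462), or 0.10 without *Npc1*-/- replicate 3.

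*Map1lc3b* (ENSMUSG00000031812, chr8:121590361-121598760, plus strand) encodes LC3B, the form most often followed as a marker of autophagosomes. It was measured at 76.5, 88.2 and 87.7 scaled TPM in WT and at 81.2, 93.7 and 103 in *Npc1*-/-. One mutant library sat inside the WT range. A log2 fold change of 0.13 was estimated (SE 0.11, 95% interval -0.14 to 0.40, limma adjusted p = 0.560). It was 0.05 without *Npc1*-/- replicate 3 and 0.22 without *Npc1*-/- replicate 1.

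*Gabarap* (ENSMUSG00000018567, chr11:69991143-69994951, plus strand) encodes the founding member of its subfamily. WT libraries held 110, 124 and 125 scaled TPM, and *Npc1*-/- libraries 133, 158 and 159. Every mutant library was above every WT library. The means were 119 ± 8.54 and 150.2 ± 15.03 (SD, n = 3 each) and the log2 fold change was 0.33 (SE 0.11, 95% interval 0.07 to 0.58). In the fit of genotype alone the limma p was 0.0187 before adjustment and 0.138 after it, so the gene was not called. Adding the replicate number to the fit changed this call, as given in the last paragraph. The exact two-sided permutation test on this gene alone gave p = 0.1, the smallest that 20 arrangements of 3 against 3 allow. Leaving out each library in turn kept the fold change between 0.27 and 0.42, with limma adjusted p from 0.0865 to 0.376. The separation depended on scale. In TPM as deposited it stood at 142, 137 and 130 in WT against 146, 135 and 116 in *Npc1*-/-, the groups overlapped, and the log2 fold change was -0.04 (limma adjusted p = 0.843). On scaled TPM the neuronal marker sum was also higher in every mutant library, though of its 8 markers only *Nefl* had separate groups. The microglial, endothelial and pericyte sums and 4 of 5 astrocyte markers were lower in every mutant library on that scale. Their part in the *Gabarap* difference was not tested.

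*Gabarapl1* (ENSMUSG00000030161, chr6:129533160-129542346, plus strand) encodes a close relative of GABARAP. It stood at 91.7, 98.4 and 109 scaled TPM in WT and at 96.7, 115 and 146 in *Npc1*-/-. The mutant libraries spread more widely, and the lowest lay inside the WT range. On the log2 scale the fold change was 0.24 (SE 0.16, 95% interval -0.13 to 0.61, limma adjusted p = 0.436), and it was 0.08 without *Npc1*-/- replicate 3 and 0.38 without *Npc1*-/- replicate 1. An opposite-strand transcript, *1700101I11Rik*, shares 18.03% of the 100-base stretches of *Gabarapl1* and averaged 0.278 TPM.

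*Gabarapl2* (ENSMUSG00000031950, chr8:111940703-111953612, plus strand), also known as GATE-16, was the most variable of the Atg8 genes within WT. It stood at 95.03, 121 and 128 scaled TPM in WT and 99.2, 123 and 149 in *Npc1*-/-. The ranges overlapped, with the highest mutant library above all WT libraries. The log2 fold change of 0.10 (SE 0.18, limma adjusted p = 0.794) became -0.05 without *Npc1*-/- replicate 3 and -0.03 without WT replicate 1.

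Summed over the 5 genes, the Atg8 level was 491, 554 and 593 scaled TPM in WT and 544, 629 and 707 in *Npc1*-/-. The mutant mean of 627 ± 81.2 was above the WT mean of 546 ± 51.3 (SD, n = 3 each), and the ranges overlapped. In TPM as deposited the order turned. The sums came to 636, 613 and 615 in WT against 600, 538 and 514 in *Npc1*-/-, with no overlap between the groups. The *Mbp* share was highest in *Npc1*-/- replicates 2 and 3, the libraries with the lowest Atg8 TPM and the smallest size factors. *Npc1*-/- replicate 1 had a smaller *Mbp* share than WT replicate 2 (20.2 against 22.2%) at nearly the same size factor (1.102 against 1.106). A TPM value is a share of the library. The part of *Mbp* in these values was not tested. Which scale stands closer to molecules per cell was not tested.

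**Figure D2:**
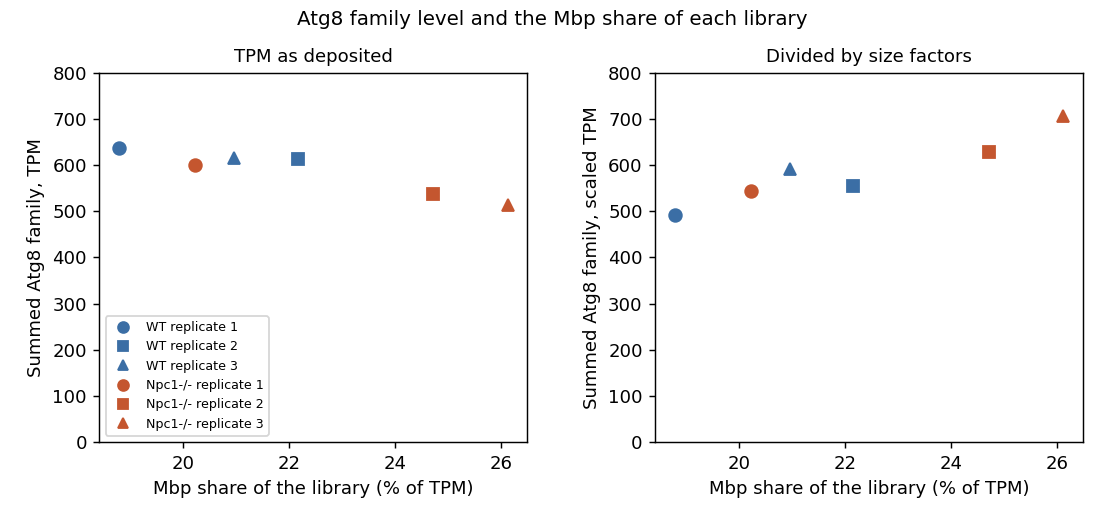
Summed level of the 5 Atg8 genes against the Mbp share of each library in percent of TPM, in TPM as deposited (left) and in scaled TPM (right), one point per library. In TPM the 3 Npc1-/- libraries lie below all WT libraries, at 514 to 600 against 613 to 636, and in scaled TPM the Npc1-/- replicates 2 and 3 lie highest.

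The share of each gene in the Atg8 sum does not depend on library scaling. *Gabarap* held 22.3, 22.3 and 21.1% of the Atg8 TPM in WT and 24.4, 25.2 and 22.6% in *Npc1*-/-. Its mean share was 21.9 ± 0.70% against 24.0 ± 1.35% (SD, n = 3 each), and no WT library reached a mutant one. The shares of the other 4 genes overlapped between genotypes. *Map1lc3a* held 23.5 ± 1.05% in WT and 22.7 ± 1.79% in *Npc1*-/-, *Map1lc3b* 15.4 ± 0.57% and 14.8 ± 0.23%, *Gabarapl1* 18.3 ± 0.47% and 18.9 ± 1.54%, and *Gabarapl2* 20.9 ± 1.37% and 19.6 ± 1.43%. The ratio of the LC3 to the GABARAP subfamily was 0.637 ± 0.020 in WT and 0.601 ± 0.051 in *Npc1*-/-, again with overlap. Without *Npc1*-/- replicate 3 the *Gabarapl1* share difference turned from 0.58 to -0.30 percentage points, that of *Map1lc3a* went from -0.75 to -0.012, and that of the ratio from -0.036 to -0.014. The *Gabarap* share difference went from 2.16 to 2.90 percentage points without that library, and that of *Gabarapl2* from -1.33 to -2.06. Without *Npc1*-/- replicate 1 the ratio difference was -0.064. These shares are a description and carry no test.

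**Figure D3:**
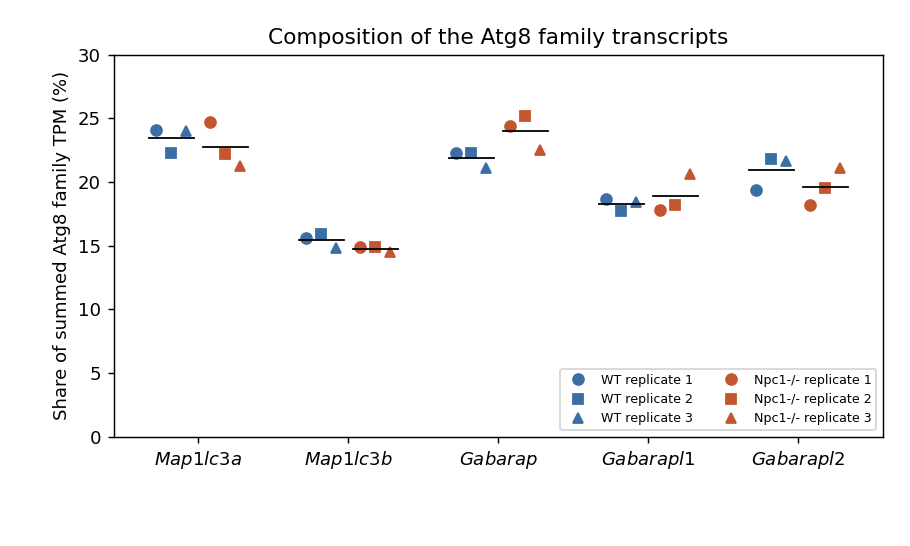
Percent of the summed Atg8 TPM held by each of the 5 genes, one point per library and a line at each group mean. *Gabarap* lies at 21.1 to 22.3% in WT and 22.6 to 25.2% in Npc1-/-, and the other 4 genes overlap between the groups.

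*Sqstm1* (ENSMUSG00000015837, chr11:50199366-50210827, minus strand) encodes p62, which binds ubiquitin on cargo and the Atg8 proteins on the membrane. It read 109, 106 and 114 scaled TPM in WT and 105, 109 and 132 in *Npc1*-/-. WT libraries lay close together, and a single mutant library, replicate 3, stood above them. The log2 fold change was 0.06 (SE 0.11, 95% interval -0.19 to 0.32, limma adjusted p = 0.786), and it was -0.04 without that library. In TPM as deposited it stood at 141, 117 and 118 in WT against 115, 92.8 and 95.7 in *Npc1*-/-, all mutant values below all WT values, with a log2 fold change of -0.31 (limma adjusted p = 0.252). *Sqstm1* overlaps *Mrnip* on the opposite strand over 13.7% of its 100-base stretches, and *Mrnip* averaged 2.89 TPM. Use of strand in the counting is not described in the sources used here.

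*Becn1* (ENSMUSG00000035086, chr11:101285952-101302286, minus strand) encodes Beclin 1 of the lipid kinase complex. The WT libraries held 65.5, 73.0 and 82.2 scaled TPM, against 73.9, 71.7 and 94.5 in *Npc1*-/-. Both lower mutant libraries lay inside the WT range. Its log2 fold change of 0.12 (SE 0.14, limma adjusted p = 0.683) became -0.01 without *Npc1*-/- replicate 3. *Cntd1* on the opposite strand shares 30.7% of the 100-base stretches of *Becn1* and averaged 0.118 TPM.

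*Ulk1* (ENSMUSG00000029512, chr5:110784488-110810097, minus strand) encodes the kinase that starts autophagosome formation. It was the only member with a negative fold change on scaled TPM. WT libraries held 11.9, 8.89 and 11.4 scaled TPM and *Npc1*-/- libraries 10.2, 8.60 and 9.54. The lowest WT library lay below 2 of the 3 mutant libraries. The log2 fold change was -0.17 (SE 0.13, 95% interval -0.48 to 0.15, limma adjusted p = 0.519).

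*Atg7* (ENSMUSG00000030314, chr6:114643097-114860614, plus strand) encodes the E1-like enzyme that serves both conjugation systems. It varied least of all members, at 6.51, 6.41 and 6.58 scaled TPM in WT and 6.81, 6.34 and 6.72 in *Npc1*-/-. The coefficient of variation was 1.31% in WT and 3.75% in *Npc1*-/-. Its log2 fold change was 0.02 (SE 0.09, 95% interval -0.19 to 0.24, limma adjusted p = 0.908).

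*Atg5* (ENSMUSG00000038160, chr10:44268358-44364291, plus strand) encodes the protein that is joined to ATG12 and then directs Atg8 lipidation. It read 6.34, 6.66 and 5.77 scaled TPM in WT and 6.60, 6.55 and 5.85 in *Npc1*-/-. Each group covered nearly the same range, and the log2 fold change was 0.02 (SE 0.11, 95% interval -0.23 to 0.27, limma adjusted p = 0.947).

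The transcription factor TFEB and its relatives bind E-box sequences, among them the CLEAR element found at many lysosomal and autophagy genes. RefSeq promoter windows (GRCm38.p6, 250 bases before to 50 after the gene start) were at hand for 8 of the 10 members. CACGTG, on either strand, lay in 2 of the 8 and in 7.15% of 32851 promoters. The longer palindrome TCACGTGA, which contains it, lay in none of the 8 and in 0.974% of all promoters. Members were counted by gene and the background by promoter, so these figures differ in unit. Both matches are shown with flanks, the motif in capitals.
Atg7, chr6:114670952-114670981, plus strand: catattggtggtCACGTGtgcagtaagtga
Atg5, chr10:44268313-44268342, plus strand: cggagcgcttgcCACGTGgtcttggtgacg
The motif began at -132 from the RefSeq start of *Atg7* and at -14 from that of *Atg5*. These starts differ from the GENCODE gene bounds given above, and the *Atg7* window lies inside the GENCODE gene, whose first annotated base is further upstream. On scaled TPM these members had the smallest absolute fold changes, both 0.02 on the log2 scale. That did not hold in TPM as deposited, where *Atg5* was at -0.33 and *Atg7* at -0.32. Any link between the motif and the fold changes was not tested. A match of letters is not a binding site.

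Set side by side, the 10 genes fell into 2 levels. The 7 more abundant members ranked 602 to 1125 of the genes tested by mean TPM, the top 3.95 to 7.38%. *Ulk1* ranked 6509, *Atg7* 8176 and *Atg5* 8312. In WT the order by scaled TPM was *Map1lc3a*, *Gabarap*, *Gabarapl2*, *Sqstm1*, *Gabarapl1*, *Map1lc3b*, *Becn1*, *Ulk1*, *Atg7* and *Atg5*, from 128 ± 12.7 to 6.26 ± 0.45 (SD, n = 3). Neighbours in this order overlapped, apart from the steps from *Gabarapl1* to *Map1lc3b*, from *Becn1* to *Ulk1* and from *Ulk1* to *Atg7*. In *Npc1*-/- *Gabarap* stood first at 150.2 ± 15.03, ahead of *Map1lc3a* at 141 ± 7.97 with overlapping ranges, *Gabarapl1* stood above *Sqstm1*, and the other places were as in WT.

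As a group, 0 of 10 members were called by limma, against 0.813% of all genes tested (0.4% higher and 0.413% lower). At an unadjusted p below 0.05 there was 1 of 10, against 22.2%. The groups did not overlap for 1 of 10, against 27.5%. Fold changes were above 0 for 9 members and below 0 for 1, where 49% of all genes were below 0, with a median of 0.11 against 0.01 over all genes. The exact permutation p of single members ran from 0.1 to 0.9. *Npc1*-/- replicate 3 was the highest library for 7 members and WT replicate 1 the lowest for 6, and without *Npc1*-/- replicate 3 the median of the members was 0.03.

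The direction of the members rested on the scale. In TPM as deposited all 10 fold changes were below 0, from -0.52 for *Ulk1* to -0.04 for *Gabarap*, with a median of -0.26. The median of all genes on that scale was -0.33, and 8 of the 10 members lay above it. *Sqstm1*, *Map1lc3b*, *Gabarapl1* and *Gabarapl2* had all mutant values below all WT values, 4 of 10 against 25.6% of all genes tested (28.2% in either direction). None was called by limma (adjusted p from 0.223 to 0.843, and 0 of 10 at an unadjusted p below 0.05). There WT replicate 1 was the highest library for 7 members and *Npc1*-/- replicate 3 the lowest for 6. The 95% intervals of all 10 genes lay within 1 of 0 on scaled TPM, and those of 9 genes did in TPM as deposited, where that of *Ulk1* reached -1.07. After quantile normalization the member median was 0.019 against 0.012 over all genes, with 6 members above 0 and 4 below. With a curve on transcript length removed it was 0.054 against 0.009, with 7 above 0 and 3 below.

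**Figure D4:**
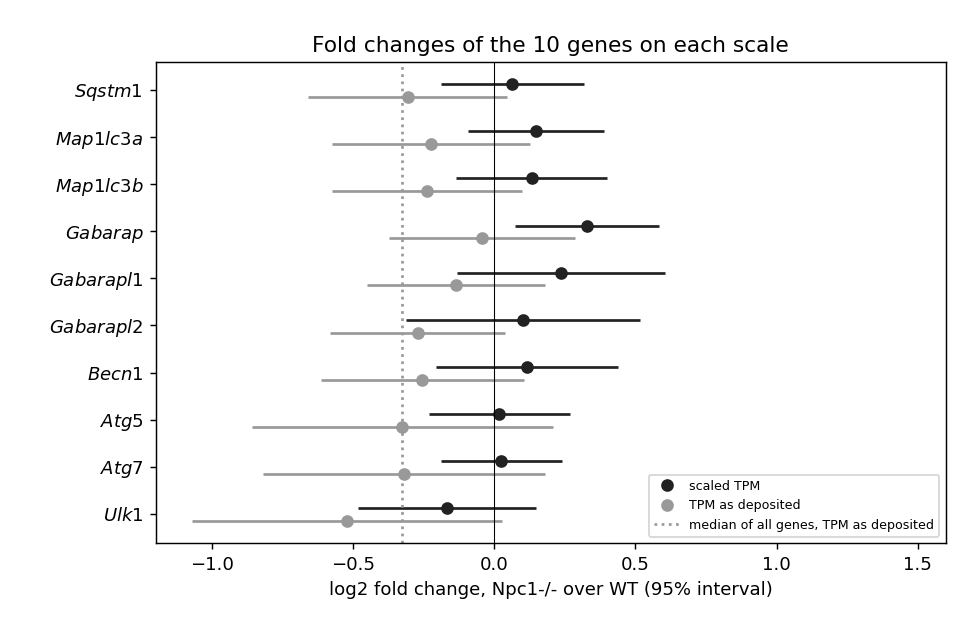
Log2 fold change of each gene, Npc1-/- over WT, with 95% intervals from limma, on scaled TPM (black) and TPM as deposited (grey). The solid line is 0 and the dotted line the median of all genes in TPM as deposited, -0.33. The black points run from -0.17 to 0.33 and the grey points from -0.52 to -0.04.

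Another 65 autophagy genes, listed by role, gave a wider view of the pathway. *Atg9b* was too low to test. None of the 64 tested was called by limma. At an unadjusted p below 0.05, 7 were higher and 2 lower, against 10.6% and 11.6% of all genes tested. The groups did not overlap for 12 higher and 4 lower genes, against 13.3% and 14.2%. Their log2 fold changes ran from -0.42 to 0.59 with a median of 0.01.

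Among the initiation genes, *Rb1cc1* (FIP200, the scaffold of the ULK1 complex) had the smallest adjusted p of the pathway. It read 15.7, 17.0 and 18.7 scaled TPM in WT and 22.6, 22.1 and 23.0 in *Npc1*-/-, with no overlap. The means were 17.1 ± 1.48 and 22.6 ± 0.47 (SD, n = 3 each) and the log2 fold change was 0.39 (limma adjusted p = 0.0731). In TPM as deposited the *Rb1cc1* groups overlapped and the log2 fold change was 0.03 (limma adjusted p = 0.931). *Ulk2*, the paralog of *Ulk1*, had a log2 fold change of -0.13. The median of the 4 initiation genes was -0.04. In the lipid kinase complex the 7 genes had a median of 0.02, with *Uvrag* at -0.25 and *Atg14* at 0.16.

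The cargo receptors held the largest positive values. *Optn* (optineurin, a receptor of ubiquitinated cargo and mitochondria) read 7.36, 6.42 and 6.99 scaled TPM in WT and 9.60, 9.58 and 13 in *Npc1*-/-. Its groups were separate, with a log2 fold change of 0.59 (limma adjusted p = 0.0754), or 0.44 without *Npc1*-/- replicate 3. In TPM as deposited the *Optn* groups overlapped and the log2 fold change was 0.23 (limma adjusted p = 0.459). *Retreg1* (FAM134B, a receptor for endoplasmic reticulum) read 11.4, 10.7 and 10.8 in WT and 16.7, 18.1 and 13.2 in *Npc1*-/-, also separate. The log2 fold change was 0.51 (limma adjusted p = 0.0794), and without *Npc1*-/- replicate 3 it was 0.64 and passed the threshold (limma adjusted p = 0.0386). That fit called 477 genes, against 124 in the full set. With any other library left out *Retreg1* did not pass (0.42 to 0.54, limma adjusted p from 0.1255 to 0.251). In TPM as deposited its groups overlapped and the log2 fold change was 0.15 (limma adjusted p = 0.676). Of the 13 receptors, 3 were higher at an unadjusted p below 0.05 and none lower, against 10.6% and 11.6% of all genes tested. The median log2 fold change of the receptors was -0.02.

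The remaining roles held smaller values. *Vmp1*, a lipid scramblase needed for membrane supply, had a log2 fold change of 0.29 (limma adjusted p = 0.132) and *Wipi2*, which recruits the conjugation machinery, 0.11, within a median of 0.11 for 9 genes. In conjugation, the protease *Atg4d* was at 0.23 and the E2-like enzyme *Atg3* at 0.30 (limma adjusted p = 0.195 and 0.278), within a median of 0.03 for 9 genes. Among 14 fusion genes with a median of 0.04, *Vps16*, a core subunit of the HOPS tethering complex, was at 0.33 and the adaptor *Plekhm1* at -0.38 (limma adjusted p = 0.0909 and 0.143).

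The 8 regulators had a median of -0.07. *Foxo1*, a transcription factor that drives autophagy genes, had means of 4.68 ± 0.33 scaled TPM in WT and 3.37 ± 0.17 in *Npc1*-/- (SD, n = 3 each), with separate groups and a log2 fold change of -0.42 (limma adjusted p = 0.0892). *Keap1*, which p62 binds, was at 0.43 with a wide mutant spread, 36.7 ± 4.73 against 50.6 ± 13.9 (limma adjusted p = 0.275), and it was 0.23 without *Npc1*-/- replicate 3 and 0.64 without *Npc1*-/- replicate 1. *Tfeb* itself had means of 34.3 ± 1.14 and 32.1 ± 3.76 and a log2 fold change of -0.10; it is named here after its values were seen.

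**Figure D5:**
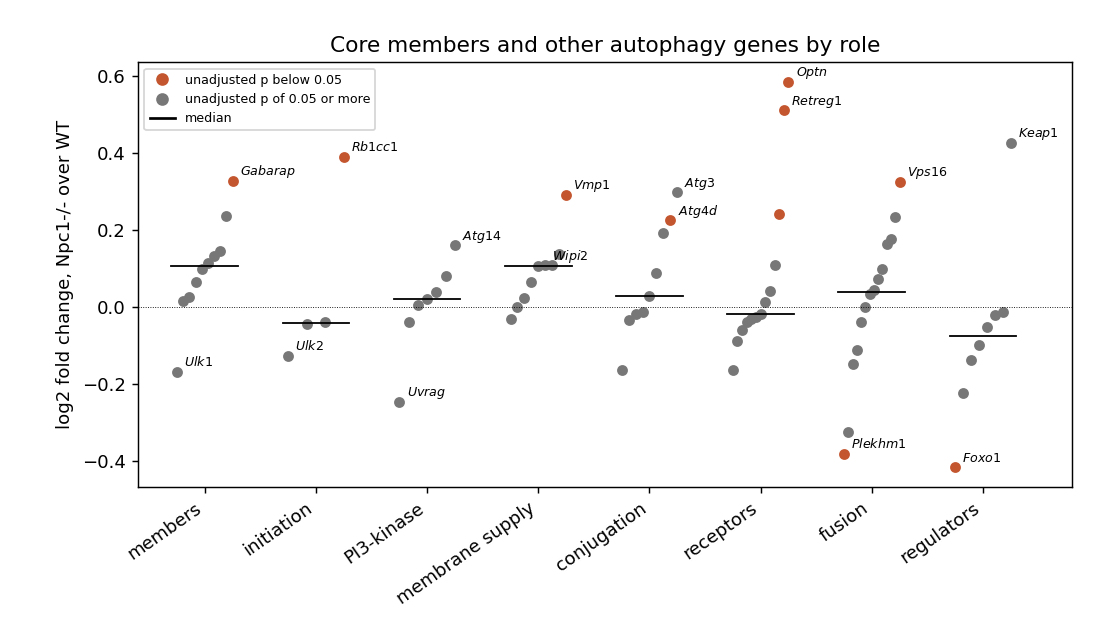
Log2 fold changes on scaled TPM of the 10 members and of 64 other autophagy genes by role, one point per gene and a bar at each median. Orange-red points have an unadjusted p below 0.05, and none passed the adjusted threshold. Role medians lie between -0.07 and 0.11, with *Optn* highest at 0.59 and *Foxo1* lowest at -0.42.

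The genes whose levels followed 3 of the members most closely over the 6 libraries were sought among 9149 genes, as a description. For *Sqstm1* they were *Rom1* (Pearson r = 0.989), *Mark1* (0.988) and *Osbp* (0.981), and 31 genes exceeded 0.95. For *Map1lc3a* they were *Nt5c3* (0.988), *Rufy2* (0.985) and *Rnaseh1* (0.985), and 75 genes exceeded 0.95. For *Ulk1* they were *Mga* (0.977), *Btg1* (0.968) and *Pcnx* (0.964), and 6 genes exceeded 0.95. All points share the scaling of their library, and with 6 libraries many genes reach such values.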

How the data were processed

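Poly(A) RNA of 6 libraries was sequenced. The authors deposited TPM and FPKM per gene; per the labels and the submitters' processing notes, reads were trimmed with cutadapt 2.3, aligned with STAR 2.7.8a to GRCm38 and quantified with RSEM 1.3.3, while the study's methods name featureCounts. TPM values are shares of a library. They were divided by median-of-ratios size factors over genes above 0 in every sample, and log2 values with a pseudocount of 0.5 were tested with limma 3.58.1 (trend, R 4.3.3) where the mean TPM reached 0.5, without covariates, with Benjamini-Hochberg adjustment. No count test was used. Deposited FPKM served to estimate depth, 40250000 to 50250000 fragments, which limits counting error only. Members, role lists and marker lists were chosen with earlier results of these data known. Named genes outside the members were those called and the 2 with the smallest p per role, and, for 3 members, the 3 most correlated genes. Each library is one mouse. The code was tested on simulated data. Alternatives covered values, scaling, pseudocount, filters, variance model, length, GC content, a replicate block and each library left out.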

Additional observations from a re-analysis of the deposited data

How the results depend on the processing

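The count of called genes, 124 at the main settings, was 924 in TPM as deposited, 225 after quantile normalization, 21 with no filter, 447 at a mean TPM of at least 5, 42 without the trend and 5 to 477 with 1 library left out (477 without Npc1-/- replicate 3). No member was called under these. Among the other autophagy genes the count was 0 to 1 with a library left out (Retreg1). In TPM as deposited the median log2 fold change was -0.26 for the members and -0.33 for all genes, 4 members had separate groups, and these turned below 0: Sqstm1 -0.31, Map1lc3a -0.23, Map1lc3b -0.24, Gabarap -0.044, Gabarapl1 -0.14, Gabarapl2 -0.27, Becn1 -0.26, Atg5 -0.33, Atg7 -0.32, Atg14 -0.16, Vmp1 -0.077, Wipi2 -0.26, Atg4d -0.13, Atg3 -0.071 and Vps16 -0.042. Quantile normalization turned Sqstm1 to -0.081, Map1lc3a to -0.0053 and Gabarapl2 to -0.031, and removing a curve on transcript length turned Map1lc3a to -0.0037 and Atg5 to -0.0099. The cause was not tested. With 1 library left out, on scaled TPM, 1 to 3 members had separate groups (1 in the full set), Sqstm1 ran from -0.041 to 0.13, Gabarapl2 from -0.048 to 0.25, Becn1 from -0.014 to 0.20 and Atg5 from -0.039 to 0.065. The Gabarap share difference ran from 1.59 to 2.90 percentage points.

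Same-numbered libraries of both genotypes deviated together with correlations of 0.414, 0.0602 and 0.326, and each library correlated best with its own number. The numbers were not taken as pairs in the main fit, and whether they mark pairs was not tested. With the replicate number as a block, limma called 2011 genes (13.2% of those tested), 1 member (Gabarap, log2 fold change 0.33, adjusted p = 0.0301, from 0.0301 to 0.843 over its alternatives) and 5 other autophagy genes (Rb1cc1, Optn, Retreg1, Vps16 and Keap1).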
